A study of Mus musculus with 6 samples.

Results

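The proteasome subunit genes of mouse long-term haematopoietic stem cells (LT-HSC) were described across 3 genotypes with 2 libraries each. They were taken by symbol, as every gene whose name starts with Psma, Psmb, Psmc, Psmd, Psme or Psmf followed by a digit, leaving out pseudogene symbols that hold -ps. The rule took 45 of the 17997 genes in the table, and all 45 had at least 1 CPM (the authors' normalised read count, scaled to the size of each library) in at least 2 of the 6 libraries, so none was lost to this filter. Of these, 14 encode the constitutive core, 5 the immunoproteasome and its activator, 17 the cap and 9 other products. One of the 9, Psmc3ip, is taken by its name only, since it encodes a meiotic recombination factor and not a proteasome subunit.

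The NPMc_Flt3ITD group carried the labelled genotype NPMc+/FLt3-ITD, a mutant nucleophosmin that lies in the cytoplasm together with an internal tandem duplication (ITD) of the receptor tyrosine kinase gene Flt3. The Flt3ITD group carried the duplication alone, and the Mx group, which the series design names as the control, had the genotype MxCRE, a Cre recombinase driven by an interferon-inducible promoter. The labels do not say whether the mutant groups also carried this Cre, nor how or when it was induced, and NPMc+ on its own is not among the groups. All animals were C57BL/6 mice of 8 to 11 weeks, and cells were sorted from crushed limb bones and sternum, with sort markers not given in the sources used here. Replicates are biological per the series design, but the labels do not give the number of animals behind a library, so p-values measure the spread between these libraries only.

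The proteasome is the protease that degrades proteins tagged with ubiquitin. Its barrel-shaped core is built of rings of alpha subunits (Psma genes), which gate the entry, and of beta subunits (Psmb genes), some of which cut peptide bonds. The cap holds a base, with ATPases (Psmc genes) that unfold the substrate and further subunits (Psmd1, Psmd2 and Psmd4). Its lid (most other Psmd genes) removes the ubiquitin. In immune cells and after interferon, the beta subunits Psmb8, Psmb9 and Psmb10 replace Psmb5, Psmb6 and Psmb7 in new cores, which then favour peptides for MHC class I. The activator made of Psme1 and Psme2 can sit on the core in place of the cap. Blood stem cells are known for a low rate of protein synthesis and for a need to keep damaged proteins few.

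The promoters of 4 members are printed as examples from the classes compared below, namely Psmc2 for the cap, Psmb5 for the core, and Psmb9 and Psme1 for the immunoproteasome. Each runs from 250 bases before to 50 bases from the annotated start and was read from the RefSeq table of build GRCm38.p6, with the first listed start where a gene has several. Capitals mark matches on either strand to TGACNNNGC (the core of the antioxidant response element that the proteasome regulator Nfe2l1 can use), CCAAT (the NF-Y box) or GAAA, any 2 bases and GAAA again (the core of the interferon-stimulated response element, ISRE).
Psmc2 (chr5:21785025-21785324, plus strand): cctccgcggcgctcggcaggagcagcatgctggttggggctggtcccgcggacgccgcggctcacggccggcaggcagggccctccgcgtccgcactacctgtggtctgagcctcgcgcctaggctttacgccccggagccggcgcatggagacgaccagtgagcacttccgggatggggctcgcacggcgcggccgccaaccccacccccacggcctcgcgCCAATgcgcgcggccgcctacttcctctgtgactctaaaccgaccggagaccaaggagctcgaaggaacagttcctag
Psmb5 (chr14:54617946-54618245, minus strand): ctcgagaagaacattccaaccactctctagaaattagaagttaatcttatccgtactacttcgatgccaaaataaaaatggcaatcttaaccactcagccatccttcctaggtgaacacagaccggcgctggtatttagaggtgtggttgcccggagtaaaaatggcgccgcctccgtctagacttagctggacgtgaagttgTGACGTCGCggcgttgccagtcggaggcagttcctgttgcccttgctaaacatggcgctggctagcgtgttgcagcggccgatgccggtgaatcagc
Psmb9 (chr17:34187281-34187580, minus strand): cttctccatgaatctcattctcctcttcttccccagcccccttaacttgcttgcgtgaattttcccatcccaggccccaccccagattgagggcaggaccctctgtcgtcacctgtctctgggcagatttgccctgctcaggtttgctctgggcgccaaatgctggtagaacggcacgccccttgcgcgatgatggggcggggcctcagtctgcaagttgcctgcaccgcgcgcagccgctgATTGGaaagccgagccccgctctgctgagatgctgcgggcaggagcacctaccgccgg
Psme1 (chr14:55578244-55578543, plus strand): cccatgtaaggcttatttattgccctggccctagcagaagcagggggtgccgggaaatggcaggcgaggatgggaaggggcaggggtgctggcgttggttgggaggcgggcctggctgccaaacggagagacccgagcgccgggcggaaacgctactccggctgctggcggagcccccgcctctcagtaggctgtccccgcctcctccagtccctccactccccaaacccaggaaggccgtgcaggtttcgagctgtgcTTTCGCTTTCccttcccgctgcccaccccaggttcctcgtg

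A promoter entry was found for 38 of the 45 members, and none is printed or counted for Psma8, Psmb1, Psmb2, Psmb7, Psmc3, Psmd3 and Psmd7. The sequence TGACNNNGC occurred in 6 of 38 member promoters, among them Psmb5 and Psmb6, and in 12.5% of the promoters of all 27025 genes in the table. CCAAT occurred in 15 of 38 member promoters, 6 of 11 of the core and 4 of 14 of the cap, against 37.9% of all promoters. The ISRE core occurred in 4 of 38 member promoters, in 1 of the 5 immunoproteasome genes (Psme1), and in 3.49% of all promoters. Each printed promoter holds 1 match, so no matches overlap there, and a match is not evidence that a factor was bound. The printed promoters do not represent their classes in this respect. No match to any of these sequences was found for Psmb8, Psmb10 and Psme2 of the immunoproteasome. The same held, for example, for Psma4 of the core and Psmc4 of the cap.

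The 6 libraries held between 15618800 (Flt3ITD replicate 1) and 37038900 (NPMc_Flt3ITD replicate 2) reads, recovered from the table. A member had between 52 and 16796 reads in a library, and at least 308 once Psma8 and Psmb11 were set aside. All 12 LT-HSC markers chosen, such as Procr and Mecom, were detected, with summed levels of 1497 and 1218 CPM in NPMc_Flt3ITD, 1033 and 1150 in Flt3ITD and 2117 and 2173 in Mx, and 6 of the 12 fell in Flt3ITD against Mx and 3 in NPMc_Flt3ITD against Mx. Markers of multipotent progenitors summed to 1826 and 2232 CPM in NPMc_Flt3ITD, 1518 and 1659 in Flt3ITD and 773 and 889 in Mx, and 2 of these 5 genes rose in Flt3ITD against Mx and 2 in NPMc_Flt3ITD against Mx. In Flt3ITD these genes did not move together. Plac8, Cd48 and Cd34 were higher in both Flt3ITD libraries than in both Mx libraries. Cd27 was lower (81.9 and 127 CPM in Flt3ITD, against 147 and 178 CPM in Mx), and Flt3 overlapped between these groups. Erythroid markers summed to 241 and 63.6 CPM in NPMc_Flt3ITD, 2085 and 1976 in Flt3ITD and 278 and 208 in Mx, while Slc4a1 of mature red cells stayed under 1 CPM in every library, and of 8 tested genes 4 rose in Flt3ITD against Mx and 2 fell in NPMc_Flt3ITD against Mx. Markers of S and G2/M phase summed to 1391 and 1380 CPM in NPMc_Flt3ITD, 2585 and 2251 in Flt3ITD and 1497 and 1489 in Mx, and 5 of these 12 genes rose in Flt3ITD against Mx. Of the 12657 genes tested, limma called 268 higher and 308 lower in Flt3ITD against Mx. In NPMc_Flt3ITD against Mx it called 65 higher and 83 lower. Xist, the RNA that coats the silenced X chromosome, was measured at 259 and 625 CPM in NPMc_Flt3ITD, 37.2 and 547 in Flt3ITD and 1007 and 1038 in Mx, highest in Mx. Ddx3y, a gene of the Y chromosome, was lowest in Mx. It was at 61.1 and 46.9 CPM in NPMc_Flt3ITD, 63.6 and 32.8 in Flt3ITD and 20.4 and 24.8 in Mx. The share of each sex in the libraries was not tested, and no fit took sex into account. The part of these differences in the results below was not tested. In bulk RNA, fewer cells of a type and less RNA per cell cannot be told apart.

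In Flt3ITD LT-HSC the proteasome genes stood higher than in Mx LT-HSC nearly all together, each by less than 1 on the log2 scale. The fold change was above 0 for 42 of the 45 members, with a median log2 fold change of 0.48, while the median over all 12657 genes tested was 0.0051 and 50.3% of them were above 0. The 3 members that ran the other way were Psma8, Psmb11 and Psme4. The medians were 0.43 for the 14 core genes, 0.71 for the 5 immunoproteasome genes and 0.49 for the 17 cap genes. Throughout, a log2 fold change is a difference in log2(CPM + 1), which understates changes of low genes.

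By limma with Benjamini-Hochberg adjustment over all genes tested, 1 of the 45 members rose, the ATPase gene Psmc2, where 2.12% of all genes rose. With replicate number as a block 27 of the 45 rose, where 10.3% of all genes did. Without adjustment 28 members had a limma p under 0.05, against 23.6% of all genes. On the reads recovered from the table, edgeR (quasi-likelihood) called 0 members and DESeq2 14, against 2.38% and 11.8% of all genes, and edgeR with the block, a setting added after the data were seen, called 18, against 14.3%. The call of Psmc2 did not hold when any 1 library was left out (limma adjusted p between 0.0575 and 0.171).

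The direction was shared by both replicates. Both Flt3ITD libraries lay above both Mx libraries for 39 members and below them for 2 (Psma8 and Psmb11), against 26.6% and 27.3% of all genes. They lay above all 4 other libraries for 36 members, against 16.3% of all genes. Comparing libraries of the same number, 41 members were higher in Flt3ITD in replicate 1 and 43 in replicate 2, against 49.2% and 51.2% of all genes.

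**Figure D1:**
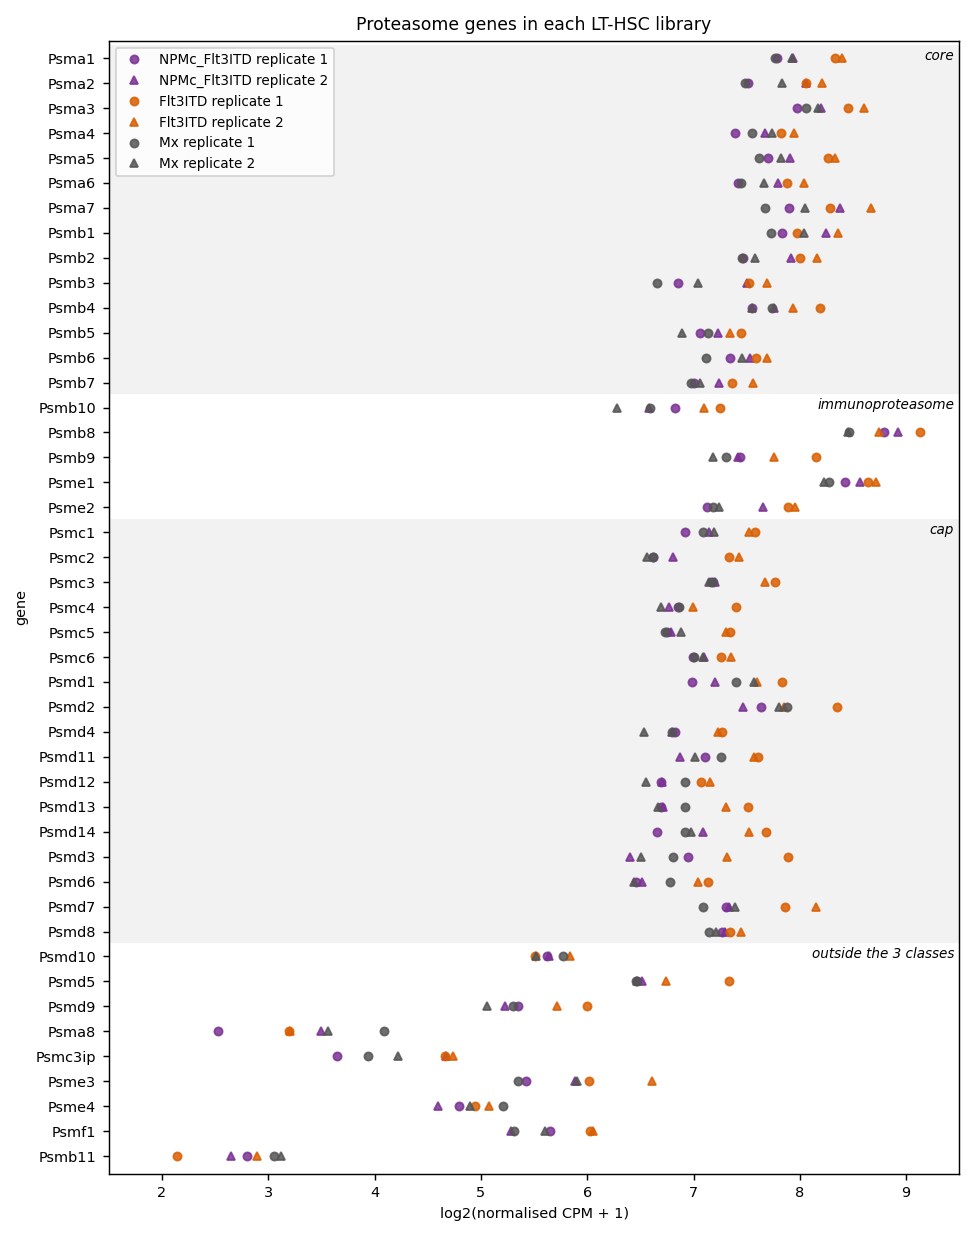
Level of each of the 45 proteasome genes in each library, as log2(normalised CPM + 1), with circles for replicate 1 and triangles for replicate 2. In 36 rows both Flt3ITD libraries lie to the right of the other 4 libraries, and Psma8 and Psmb11 are the lowest rows.

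The constitutive core was higher in Flt3ITD in both its rings. Summed over its 14 genes, the core was at 2557 and 3220 CPM in NPMc_Flt3ITD, 3518 and 3868 in Flt3ITD and 2519 and 2852 in Mx. The Flt3ITD libraries were the highest and did not overlap with the others, with a mean 1.38 times that of Mx. Within the alpha ring Psma5, one of its structural subunits, was at 306 and 321 CPM in Flt3ITD, against 194 and 226 CPM in Mx (log2 fold change 0.58, SE 0.17, limma adjusted p = 0.0838, or 0.00815 with the replicate block). This was the smallest p of its ring, and the other alpha genes Psma1, Psma2, Psma3, Psma4, Psma6 and Psma7 had log2 fold changes between 0.24 (Psma4) and 0.62 (Psma7). None of the 7 passed without the block, and 6 passed with it, all except Psma4.

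In the beta ring the largest difference was that of Psmb3, a structural subunit, at 183 and 206 CPM in Flt3ITD, against 99.8 and 131 CPM in Mx (log2 fold change 0.76, SE 0.24, limma adjusted p = 0.104, or 0.00559 with the replicate block). The 3 catalytic genes differed less. Psmb5, which gives the chymotrypsin-like activity, was at 173 and 161 CPM in Flt3ITD, against 139 and 117 CPM in Mx (log2 fold change 0.38, SE 0.17, limma adjusted p = 0.212). Psmb6, with the caspase-like activity, was at 191 and 206 CPM in Flt3ITD, against 138 and 175 CPM in Mx (log2 fold change 0.35, SE 0.18, limma adjusted p = 0.271). Psmb7, with the trypsin-like activity, was at 164 and 187 CPM in Flt3ITD, against 125 and 132 CPM in Mx (log2 fold change 0.44, SE 0.17, limma adjusted p = 0.159). The libraries of the groups did not overlap for any of these 3, and of them Psmb7 alone passed with the block (adjusted p = 0.0326). Psmb2 also passed with the block, while Psmb1 and Psmb4 did not, and Psmb1 was the single core gene whose libraries overlapped.

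All 5 immunoproteasome genes were higher in both Flt3ITD libraries than in both Mx libraries, and all 5 passed with the block but none without it. Psmb10 was at 151 and 136 CPM in Flt3ITD, against 95.3 and 76.9 CPM in Mx (log2 fold change 0.74, SE 0.18, limma adjusted p = 0.0584, or 0.00475 with the replicate block). Psmb9 was at 283 and 215 CPM in Flt3ITD, against 157 and 144 CPM in Mx (log2 fold change 0.71, SE 0.18, limma adjusted p = 0.061, or 0.00549 with the replicate block). For both genes Flt3ITD replicate 1 was the highest of all 6 libraries. Psmb8, the replacement of Psmb5, was at 558 and 427 CPM in Flt3ITD, against 352 and 349 CPM in Mx (log2 fold change 0.48, SE 0.19, limma adjusted p = 0.169, or 0.0351 with the replicate block). Of the activator genes, Psme2 was at 236 and 246 CPM in Flt3ITD, against 145 and 150.0 CPM in Mx (log2 fold change 0.71, SE 0.20, limma adjusted p = 0.0758, or 0.00815 with the replicate block) and Psme1 at 398 and 418 CPM in Flt3ITD, against 309 and 298 CPM in Mx (log2 fold change 0.43, SE 0.16, limma adjusted p = 0.154, or 0.0285 with the replicate block). The replicates lay close together for Psme1 and Psme2 and further apart in Flt3ITD for Psmb9 and Psmb8, where Flt3ITD replicate 2 was the nearer one to Mx. Psmb9 shares 212 exon bases (5.79%) with Tap1 on the other strand in the GENCODE M21 annotation. Larger shares of exon bases overlap in Psmb8 (14.7%, with Gm20496) and Psmb7 (11.8%, with Nek6), also on the other strand. Psmb5 shares 12.1% with Mir686 on the same strand. The strand setting of the counting is not given in the sources used here.

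A list of 12 interferon response genes, which holds no proteasome gene, was read beside the immunoproteasome genes. Its summed level was 269 and 231 CPM in NPMc_Flt3ITD, 299 and 226 in Flt3ITD and 373 and 343 in Mx. In Flt3ITD against Mx 2 of its 12 genes fell with none rising, where 308 of the 12657 genes tested fell. The list was mixed, since Bst2 was higher in both Flt3ITD libraries (87.1 and 80.3 CPM) than in Mx (62.4 and 53.7 CPM), though not called. Bst2 was picked for mention after its values were seen. Without Ifi44, left out after its values were seen, the sum was 239 and 213 CPM in NPMc_Flt3ITD, 269.8 and 205 in Flt3ITD and 304 and 258 in Mx, so that Flt3ITD and Mx overlapped. The transcription factor gene Irf1, an activator of immunoproteasome genes, was at 191 and 117 CPM in NPMc_Flt3ITD, 154 and 103 in Flt3ITD and 245 and 224 in Mx, and its fold change of -0.89 in Flt3ITD against Mx did not pass without the block (limma adjusted p = 0.0895, or 0.00356 with it). Irf1 was picked for mention after its values were seen. Macrophage and dendritic cell markers, cells rich in immunoproteasome, summed to 538 and 776 CPM in NPMc_Flt3ITD, 1077 and 628 in Flt3ITD and 738 and 754 in Mx, with Flt3ITD replicate 1 the highest and C1qa under 1 CPM in every library. In Flt3ITD replicate 1, Cd74, H2-Aa and H2-Ab1 were at their highest, at 280, 245 and 386 CPM. Lyz2 (159 CPM) and Cd68 (5.38 CPM) were at their lowest there, and Csf1r, Itgax and Cd209a were at 0. The part of such cells in the immunoproteasome levels was not tested.

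All 17 cap genes had fold changes above 0 in Flt3ITD against Mx, and the libraries overlapped for Psmd2 alone. The cap's summed level was 2105 and 2133 CPM in NPMc_Flt3ITD, 3234 and 2990 in Flt3ITD and 2245 and 2175 in Mx, and Flt3ITD averaged 1.41 times Mx with no overlap between the groups. Psmc2, a base ATPase, rose in Flt3ITD, where it was at 159.7 and 171 CPM, against 97.1 and 93.2 CPM in Mx (log2 fold change 0.79, SE 0.16, limma adjusted p = 0.0366, or 0.00364 with the replicate block). The other 5 ATPase genes, Psmc1, Psmc3, Psmc4, Psmc5 and Psmc6, had log2 fold changes between 0.26 (Psmc6) and 0.55 (Psmc3), with no overlap between groups. Of these Psmc3 and Psmc5 passed with the block.

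In the lid, Psmd7, the partner of the deubiquitinase subunit, was at 231 and 284 CPM in Flt3ITD, against 135 and 167 CPM in Mx (log2 fold change 0.76, SE 0.18, limma adjusted p = 0.0513, or 0.00355 with the replicate block). The deubiquitinase gene itself, Psmd14, was at 204 and 183 CPM in Flt3ITD, against 120.4 and 125 CPM in Mx (0.65, limma adjusted p = 0.0826, or 0.0149 with the block). The largest log2 fold change of all members, 0.94, was that of Psmd3, a scaffold subunit of the lid, at 236 and 158 CPM in Flt3ITD, against 111 and 90.0 CPM in Mx. Its Flt3ITD libraries lay well apart, and it passed only with the block (limma adjusted p = 0.0695, or 0.00153 with it). Psmd3 and Psmd14 were picked after their values were seen. All 8 lid genes had libraries that did not overlap, and 6 of the 8 passed with the block, the exceptions being Psmd8 and Psmd12. Among the other base subunits, Psmd4, a ubiquitin receptor, was at 153 and 149 CPM in Flt3ITD, against 110.5 and 91.8 CPM in Mx (log2 fold change 0.58, SE 0.17, limma adjusted p = 0.0794, or 0.0137 with the replicate block), while the large scaffold subunits Psmd1 and Psmd2 had log2 fold changes of 0.23 and 0.26 and passed in neither fit.

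The members outside these classes were mixed. Of the base assembly chaperones, Psmd9 was at 62.9 and 51.7 CPM in Flt3ITD, against 38.5 and 32.2 CPM in Mx (log2 fold change 0.68, SE 0.21, limma adjusted p = 0.0985, or 0.0233 with the replicate block) and Psmd5 had a log2 fold change of 0.57, while Psmd10 was at 0.034 (limma adjusted p = 0.937). A long non-coding gene on the other strand covers 25.5% of the annotated exon bases of Psmd9. Psmf1, a regulator first described as an inhibitor of the core, was at 64.1 and 65.5 CPM in Flt3ITD, against 38.6 and 47.6 CPM in Mx (log2 fold change 0.58, SE 0.21, limma adjusted p = 0.14, or 0.0566 with the replicate block). Psme3, a nuclear activator, had a log2 fold change of 0.68 and passed with the block, and Psme4, an activator linked to histone degradation, had one of -0.039. The tissue-restricted core genes had the lowest mean CPM of all members. Psma8, the alpha subunit of testis, was at 4.75 and 10.3 CPM in NPMc_Flt3ITD, 8.14 and 8.21 in Flt3ITD and 16.0 and 10.8 in Mx, and Psmb11, the beta subunit of thymic cortical epithelium, at 5.95 and 5.26 CPM in NPMc_Flt3ITD, 3.41 and 6.43 in Flt3ITD and 7.31 and 7.68 in Mx. Both lay below Mx in both Flt3ITD libraries, with limma adjusted p of 0.379 and 0.394. Psmc3ip was at 11.5 and 24.4 CPM in NPMc_Flt3ITD, 24.4 and 25.6 in Flt3ITD and 14.3 and 17.6 in Mx (log2 fold change 0.62, SE 0.35, limma adjusted p = 0.321 for Flt3ITD against Mx).

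**Figure D2:**
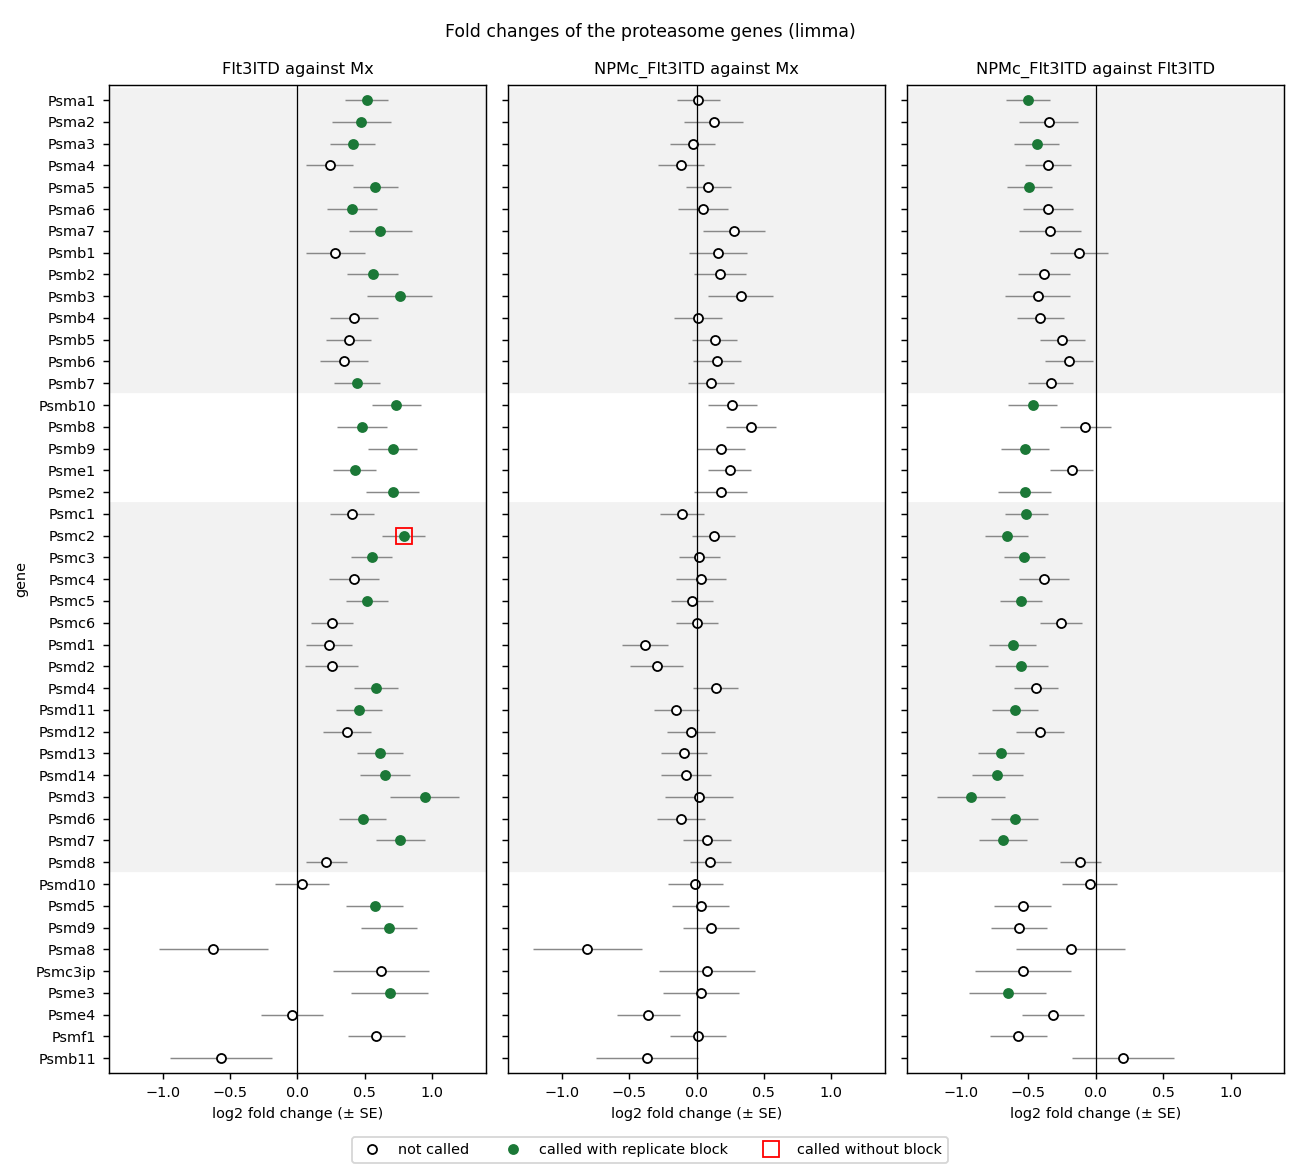
Log2 fold change ± SE from limma for the 45 genes in the 3 comparisons, with shading by class in the order core, immunoproteasome, cap and the rest. Filled points passed with replicate number as a block (27, 0 and 19 genes), and the square marks Psmc2, which passed without it.

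LT-HSC with both mutations had proteasome gene levels near those of Mx, with the immunoproteasome genes placed highest. The median log2 fold change of the 45 members was 0.031, with 30 above 0 (12 when scaled to library totals), while the median of all genes tested was 0.01 and 51.1% of them were above 0. The class medians were 0.12 for the core, 0.25 for the immunoproteasome and -0.037 for the cap. No member was called in limma, with or without the block, against 1.17% and 5.44% of all genes. No member had an unadjusted limma p under 0.05, against 12.4% of all genes. On recovered reads edgeR, edgeR with the block and DESeq2 also called 0 members, against 0.822%, 3.53% and 4.35% of all genes. The lowest limma adjusted p of a member was 0.415 (Psmd1). Without NPMc_Flt3ITD replicate 2 the core median was -0.05. The 95% intervals of all 45 log2 fold changes held 0, and those of the core genes reached from -0.51 to 0.87.

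All 5 immunoproteasome genes had fold changes above 0 in NPMc_Flt3ITD against Mx. Psmb8 was at 442 and 485 CPM in NPMc_Flt3ITD, against 352 and 349 CPM in Mx (log2 fold change 0.40, SE 0.19, limma adjusted p = 0.444). Psme1 was at 344 and 378 CPM in NPMc_Flt3ITD, against 309 and 298 CPM in Mx (log2 fold change 0.25, SE 0.16, limma adjusted p = 0.623). For these and for Psmb9 (173 and 169.6 CPM in NPMc_Flt3ITD, against 157 and 144 CPM in Mx) the libraries of the 2 groups did not overlap, with NPMc_Flt3ITD the higher, as was the case for 20.4% of all genes. The Psmb9 difference was small (log2 fold change 0.18, SE 0.18, limma adjusted p = 0.768). Psmb10, at 112 and 94.9 CPM in NPMc_Flt3ITD, against 95.3 and 76.9 CPM in Mx (log2 fold change 0.27, SE 0.18, limma adjusted p = 0.65), and Psme2, at 139 and 200.3 CPM in NPMc_Flt3ITD, against 145 and 150.0 CPM in Mx (log2 fold change 0.18, SE 0.20, limma adjusted p = 0.805), overlapped between the groups. The sign of Psme2 turned without NPMc_Flt3ITD replicate 2 (log2 fold change -0.085).

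The catalytic core genes lay close to Mx. Psmb5 was at 132 and 149 CPM in NPMc_Flt3ITD, against 139 and 117 CPM in Mx (log2 fold change 0.13, SE 0.17, limma adjusted p = 0.834). Psmb6 was at 162 and 184 CPM in NPMc_Flt3ITD, against 138 and 175 CPM in Mx (log2 fold change 0.15, SE 0.18, limma adjusted p = 0.822) and Psmb7 at 128 and 151 CPM in NPMc_Flt3ITD, against 125 and 132 CPM in Mx (log2 fold change 0.11, SE 0.17, limma adjusted p = 0.871). In each of these 3 genes NPMc_Flt3ITD replicate 1 lay within the range of the Mx libraries and replicate 2 above it. Psmb3 had the largest fold change of its ring, at 114 and 180.3 CPM in NPMc_Flt3ITD, against 99.8 and 131 CPM in Mx (log2 fold change 0.33, SE 0.24, limma adjusted p = 0.674). For all 14 core genes the libraries of the groups overlapped. In the cap, Psmd1, a large scaffold of the base, had the smallest p of all members, at 126 and 147 CPM in NPMc_Flt3ITD, against 167 and 189 CPM in Mx (log2 fold change -0.38, SE 0.17, limma adjusted p = 0.415). Both NPMc_Flt3ITD libraries lay below both Mx libraries for 5 members, against 22.1% of all genes, namely Psmd1 and Psmd2 (-0.30) of the cap, Psme4, Psma8 and Psmb11. They lay above for 6, against 20.4% of all genes, namely the 3 immunoproteasome genes named, Psmc2, Psmd8 and Psmd5. Psmc2 stood at 0.13, the lid gene with the smallest p, Psmd11, at -0.15, and the chaperone Psmd9 at 0.11. Psme4 (-0.36) and the low genes Psma8 (-0.81) and Psmb11 (-0.37) did not pass either, and Psmc3ip stood at 0.079. With libraries scaled to their totals, 18 of the 45 fold changes turned negative, among them those of Psmb7, Psmc2, Psmd9 and Psmc3ip, which left 12 above 0 (6 of the core, 5 of the immunoproteasome and 1 of the cap) and a core median of -0.012.

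With NPMc+ added on the Flt3ITD background, the levels stood lower than in Flt3ITD for nearly all members. The fold change was below 0 for 44 of the 45, Psmb11 being the exception, with a median log2 fold change of -0.44 beside 0.026 for all genes tested, of which 47.9% were below 0. The cap differed most, with a class median of -0.56, against -0.47 for the immunoproteasome and -0.35 for the core. No member was called by limma without the block, where 0.901% of all genes fell, and 25 had an unadjusted p under 0.05, against 18.8% of all genes. With the block 19 members fell, where 7.07% of all genes did. On recovered reads edgeR called 0, DESeq2 10 and edgeR with the block 13, against 0.727%, 8.04% and 8.48% of all genes. Without NPMc_Flt3ITD replicate 1 the median was -0.16 for the core and -0.27 for the immunoproteasome. In the same comparison 6 of the 12 S and G2/M genes and 4 of the 8 tested erythroid genes fell, and their part in the proteasome values was not tested. This comparison shares the Flt3ITD libraries with that of Flt3ITD against Mx, so the values are not independent of those given there.

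Of the 19 genes, 12 encode the cap, 3 the core, 3 the immunoproteasome and 1 is Psme3. Psmd13, a lid subunit, was at 103 and 104 CPM in NPMc_Flt3ITD, against 182 and 157 CPM in Flt3ITD (log2 fold change -0.71, SE 0.17, limma adjusted p = 0.0804, or 0.00891 with the replicate block). Psmc2 was at 97.1 and 111 CPM in NPMc_Flt3ITD, against 159.7 and 171 CPM in Flt3ITD (log2 fold change -0.66, SE 0.16, limma adjusted p = 0.0812, or 0.0117 with the replicate block). Psmd1 was at 126 and 147 CPM in NPMc_Flt3ITD, against 227 and 193 CPM in Flt3ITD (log2 fold change -0.62, SE 0.17, limma adjusted p = 0.113, or 0.0194 with the replicate block). All 17 cap genes had both NPMc_Flt3ITD libraries below both Flt3ITD libraries, and 38 of the 45 members did, against 23.8% of all genes. Psmd8 stood nearest to 0 of the cap genes, at -0.11. Psmd3, picked after its values were seen, was the farthest from 0, at 123 and 83.5 CPM in NPMc_Flt3ITD, against 236 and 158 CPM in Flt3ITD (log2 fold change -0.93, SE 0.25, limma adjusted p = 0.11, or 0.00218 with the replicate block).

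In the core, Psma1 had the smallest p (219 and 243 CPM in NPMc_Flt3ITD, against 320.4 and 335 CPM in Flt3ITD, log2 fold change -0.50, SE 0.16, limma adjusted p = 0.145, or 0.0204 with the replicate block). In the beta ring Psmb4 was at -0.41 (limma adjusted p = 0.254), and the catalytic genes Psmb5, Psmb6 and Psmb7 at -0.25, -0.20 and -0.34, with limma adjusted p of 0.477, 0.595 and 0.328. No beta ring gene passed with the block. Psmb9 (-0.52), Psmb10 (-0.47) and Psme2 (-0.53) passed with the block, with adjusted p of 0.0283, 0.0444 and 0.0383, but not without it (limma adjusted p of 0.164, 0.214 and 0.192). Psmb8 was at 442 and 485 CPM in NPMc_Flt3ITD, against 558 and 427 CPM in Flt3ITD, a log2 fold change of -0.077 that turned to 0.12 without Flt3ITD replicate 1, and Psme1 at -0.18, with adjusted p of 0.768 and 0.353 with the block. The Psmb8 libraries of the 2 groups overlapped, since Flt3ITD replicate 2 lay below both NPMc_Flt3ITD libraries. Whether Psmb8 and Psmb9 differed from each other in this comparison was not tested. Outside the classes, Psmf1 was at -0.57, Psmd9 at -0.57, Psmc3ip at -0.54 and Psmb11 at 0.20, and none of these passed.

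**Figure D3:**
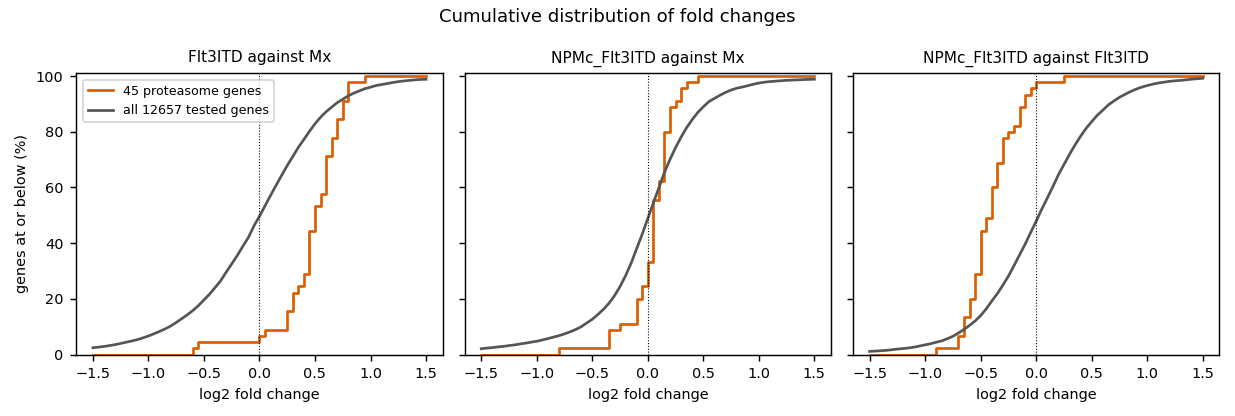
Share of genes at or below each log2 fold change for the 45 proteasome genes and for all 12657 genes tested, by comparison. Over most of its range the members' curve lies right of that of all genes in Flt3ITD against Mx, crosses it near 0 in NPMc_Flt3ITD against Mx and left of it in NPMc_Flt3ITD against Flt3ITD.

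Summed levels per library set the classes side by side. The immunoproteasome summed to 1209 and 1328 CPM in NPMc_Flt3ITD, 1626 and 1443 in Flt3ITD and 1058 and 1018 in Mx, so that both mutant groups lay above Mx, Flt3ITD by 1.48 times and NPMc_Flt3ITD by 1.22 times. The cap of NPMc_Flt3ITD averaged 0.959 times that of Mx and the core 1.08 times. Members took 0.599% and 0.656% of the reads in NPMc_Flt3ITD, 0.862% and 0.828% in Flt3ITD and 0.606% and 0.702% in Mx. Rn45s, a ribosomal RNA precursor gene, was at 235411 and 232042 CPM in NPMc_Flt3ITD, 218716 and 197099 in Flt3ITD and 254933 and 142571 in Mx. It counts in the totals behind these shares, and its part in them was not tested. With 2 libraries a group, an exact two-sided permutation test of a class sum cannot go below p = 0.333, so no test is given.

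**Figure D4:**
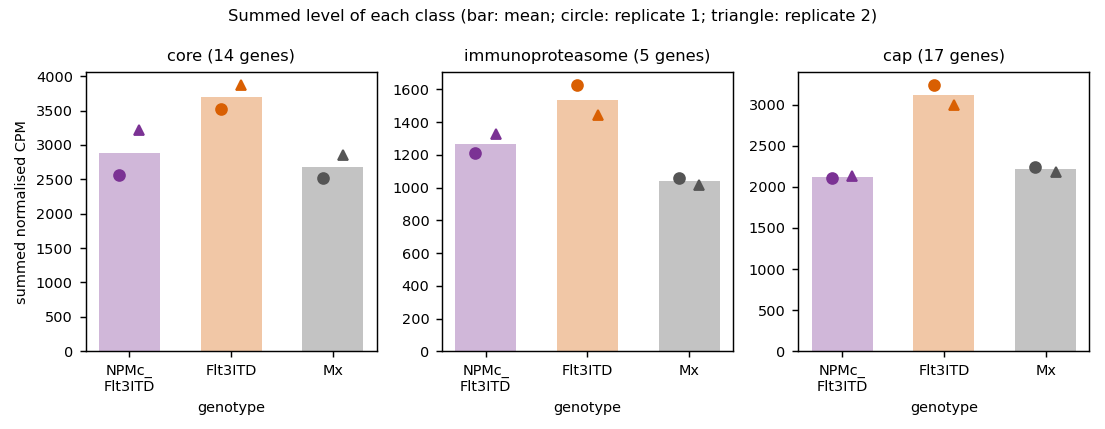
Summed normalised CPM of the 14 core, 5 immunoproteasome and 17 cap genes by genotype, with bars for the mean of 2 libraries, circles for replicate 1 and triangles for replicate 2. Flt3ITD is the highest group in each panel, and the core is higher in replicate 2 than in replicate 1 in all 3 groups.

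The replicate number went with the balance of the classes. Core genes were higher in replicate 2 than in replicate 1 for 14 of 14 genes in NPMc_Flt3ITD, 12 in Flt3ITD and 12 in Mx, whereas cap genes were so for 12, 5 and 7 of 17. The share of all genes that were higher in replicate 2 was not counted. The ratio of the cap sum to the core sum was 0.823 and 0.662 in NPMc_Flt3ITD, 0.919 and 0.773 in Flt3ITD and 0.892 and 0.762 in Mx, lower in replicate 2 in each group. Compared at the same number, NPMc_Flt3ITD was the lowest of the 3 groups and Flt3ITD the highest. The ratio of the immunoproteasome sum to the core sum was 0.473 and 0.412 in NPMc_Flt3ITD, 0.462 and 0.373 in Flt3ITD and 0.420 and 0.357 in Mx. At the same number this ratio was highest in NPMc_Flt3ITD and lowest in Mx, but the groups overlapped when the numbers were pooled.

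The exchange of catalytic subunits was followed as the ratio of each immunoproteasome gene to the core gene it replaces, taken within a library. Such a ratio of CPM depends on the lengths of both transcripts, so it is compared between libraries only. Psmb8 over Psmb5 was 3.34 and 3.25 in NPMc_Flt3ITD, 3.23 and 2.65 in Flt3ITD and 2.53 and 2.97 in Mx, with both NPMc_Flt3ITD libraries above all others. Psmb9 over Psmb6 was 1.07 and 0.922 in NPMc_Flt3ITD, 1.48 and 1.04 in Flt3ITD and 1.14 and 0.824 in Mx, highest in Flt3ITD replicate 1. Psmb10 over Psmb7 was 0.881 and 0.630 in NPMc_Flt3ITD, 0.919 and 0.728 in Flt3ITD and 0.763 and 0.582 in Mx. These last 2 ratios overlapped between all groups when pooled, and at the same replicate number Flt3ITD was the highest of the 3 groups in both.

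**Figure D5:**
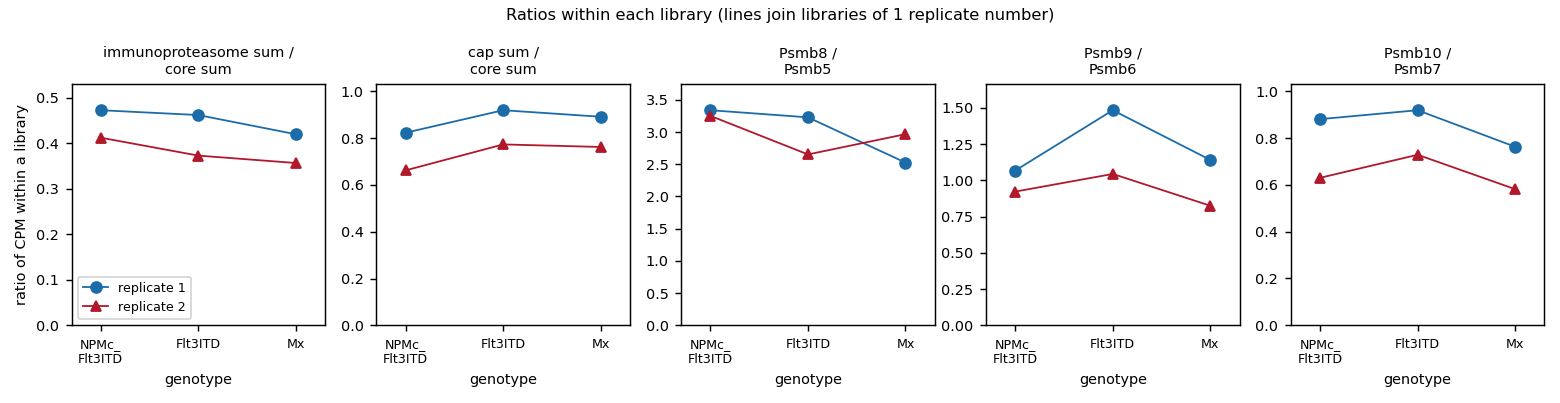
Ratios of summed or single gene CPM within each library, by genotype, with lines that join libraries of the same replicate number. Replicate 1 lies above replicate 2 in every group for all ratios except Psmb8 over Psmb5, and for Psmb8 over Psmb5 both NPMc_Flt3ITD points are the highest.

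Levels of different members were compared per kilobase of merged exon from the GENCODE M21 annotation (GRCm38), since the annotation the authors counted on is not given in the sources used here. On this scale of CPM per kb the 14 core genes of Mx ranged from 37.6 (Psmb7) to 159 (Psma5), with a median of 80.6. The 17 cap genes of Mx ranged from 18.9 (Psmc2) to 79.8 (Psmc5), with a median of 40.3. Median levels of the core were 85.3 in NPMc_Flt3ITD and 108 in Flt3ITD, and those of the cap 39.6 and 53.9. In Mx, Psmb8 was at 104 ± 0.673 CPM per kb and Psmb5 at 143 ± 17.1 (SD, n = 2), so this immunoproteasome gene was well expressed in the control group too. Psmb9 was at 41.2 ± 2.52 CPM per kb in Mx and Psmb6 at 83.6 ± 14.0. Psmb11 was the lowest member, at 1.56 CPM per kb in Mx. Merged exons include rarely used ones, so these levels are approximate.

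Genes that work with the proteasome were read from 5 lists. Of 10 listed genes for assembly and for subunits named otherwise 8 were tested, of which 2 rose in Flt3ITD against Mx and none fell, or 5 with the block. Of all genes, 2.12% rose without the block and 10.3% with it. The 2 called without the block were the assembly chaperones of the core Psmg3, at 37.3 and 53.4 CPM in Flt3ITD, against 20.7 and 19.98 CPM in Mx (log2 fold change 1.10, SE 0.25, limma adjusted p = 0.046), and Psmg2, at 99.2 and 99.6 CPM in Flt3ITD, against 56.1 and 59.9 CPM in Mx (log2 fold change 0.77, SE 0.18, limma adjusted p = 0.048). Both had libraries that did not overlap between these groups, and the median log2 fold change of the list was 0.55. In NPMc_Flt3ITD against Flt3ITD none of the 8 passed without the block and 3 fell with it, where 7.07% of all genes did. The smallest p was that of Psmg2 (log2 fold change -0.76, SE 0.18, limma adjusted p = 0.0768). In NPMc_Flt3ITD against Mx none passed in either fit, and the smallest p was that of the small lid subunit Shfm1 (log2 fold change 0.56, SE 0.35, limma adjusted p = 0.606).

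Of 15 genes for regulators of proteasome genes, 1 fell in Flt3ITD against Mx and none rose without the block, while with it 4 fell and 1 rose. Of the 12657 genes tested, 308 fell and 268 rose without the block, and 1039 fell and 1302 rose with it. The regulator that fell without the block was Maff, a small Maf protein that pairs with the Nfe2 family, at 1.05 and 1.96 CPM in Flt3ITD, against 9.26 and 11.7 CPM in Mx (log2 fold change -2.21, SE 0.38, limma adjusted p = 0.0237). Nfe2l1, the activator of proteasome genes when the proteasome is blocked, was at 59.2 and 61.5 CPM in NPMc_Flt3ITD, 43.0 and 52.8 in Flt3ITD and 43.0 and 47.5 in Mx, and its fold change of 0.075 in Flt3ITD against Mx did not pass (limma adjusted p = 0.852). It was chosen for mention after its values were seen. In NPMc_Flt3ITD against Mx no regulator passed without the block, 5 fell and 1 rose with it, and the smallest p was that of Bach2, a transcriptional repressor known from B cells (4.83 and 7.89 CPM in NPMc_Flt3ITD, against 20.4 and 20.2 CPM in Mx, log2 fold change -1.57, SE 0.33, limma adjusted p = 0.0713, or 0.0189 with the replicate block). With the block, 357 of the 12657 genes tested fell in NPMc_Flt3ITD against Mx and 332 rose. In NPMc_Flt3ITD against Flt3ITD no regulator passed without the block and 2 fell with it, where 7.07% of all genes did.

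None of 13 proteasome-bound enzymes and shuttles, 8 ubiquitin and E1 genes or 10 MHC class I presentation genes passed in any comparison without the block. Txnl1, a redox protein of the cap, was at 139.6 and 168 CPM in NPMc_Flt3ITD, 235 and 282 in Flt3ITD and 171 and 169 in Mx and had the smallest p of its list in Flt3ITD against Mx (log2 fold change 0.60, SE 0.17, limma adjusted p = 0.0857, or 0.0103 with the replicate block) and in NPMc_Flt3ITD against Flt3ITD (log2 fold change -0.74, SE 0.17, limma adjusted p = 0.0781, or 0.00538 with the replicate block). In NPMc_Flt3ITD against Mx it was Zfand2a (log2 fold change -0.64, SE 0.26, limma adjusted p = 0.36). Among the ubiquitin genes the smallest p were those of Uba6 in Flt3ITD against Mx (log2 fold change -0.38, SE 0.21, limma adjusted p = 0.295), Ubb in NPMc_Flt3ITD against Mx (log2 fold change 0.39, SE 0.20, limma adjusted p = 0.51) and Ube2n in NPMc_Flt3ITD against Flt3ITD (log2 fold change -0.39, SE 0.20, limma adjusted p = 0.346). The presentation genes were led by the chaperones Calr in Flt3ITD against Mx (log2 fold change 0.46, SE 0.18, limma adjusted p = 0.166, or 0.0233 with the replicate block) and Canx in NPMc_Flt3ITD against Flt3ITD (log2 fold change -0.59, SE 0.18, limma adjusted p = 0.135, or 0.012 with the replicate block), and by the peptide trimming enzyme gene Erap1 in NPMc_Flt3ITD against Mx (log2 fold change -0.41, SE 0.18, limma adjusted p = 0.393). With the block, 5 of the 10 presentation genes, 2 of the 13 enzymes and shuttles and 1 of the 8 ubiquitin genes rose in Flt3ITD against Mx, where 10.3% of all genes did. In NPMc_Flt3ITD against Flt3ITD, 3 presentation genes and 2 enzymes and shuttles fell with the block, where 7.07% of all genes did. In NPMc_Flt3ITD against Mx 1 presentation and 1 ubiquitin gene rose with it, where 332 of the 12657 genes tested did.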

How the data were processed

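Polyadenylated RNA of sorted LT-HSC was sequenced after SMART-seq amplification, per the labels' protocols. Per the file headers, the authors deposited a signal value for each gene in each library, namely CPM normalized with edgeR, keeping genes above 0 in at least 1 sample. The submitters' processing notes name TopHat2 2.1.0 and Bowtie2 2.2.4 (alignment tools), HTSeq 0.6.1p1 (a read counter), CASAVA 1.8, SAMtools 0.1.18, edgeR 3.20.7 and the mouse build mm9. The sources used here give neither annotation nor strand setting. The columns' sums differ, so the CPM refers to an effective library size, and 100% of the 107982 values were whole multiples of 1 read within 0.01 reads. Without molecular identifiers, reads are not independent molecules.

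The test was limma 3.58.1 with an intensity trend in R 4.3.3 on log2(CPM + 1), all 6 libraries in 1 fit with group as the only term, on the 12657 genes with at least 1 CPM in at least 2 libraries, and Benjamini-Hochberg adjusted p under 0.05 over all of them. The fit was tested on simulated data with planted changes larger than that of any member. The simulation gave every gene the same dispersion and held no replicate effect. It therefore does not show how the fit calls changes of the members' size. Same-numbered libraries deviated together across genes (r = 0.259, 0.316 and 0.341 for the 3 pairs of groups), so the numbers were read as pairing the libraries, from the values and not the labels, and results with replicate number as a block are given. Alternatives were other pseudocounts, filters and scalings, edgeR 4.0.16 and DESeq2 1.42.0 on recovered reads, and leaving out libraries.

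Members and lists were chosen with earlier results of these data known. Values are given for the immunoproteasome and catalytic core genes, for called members, and otherwise for the member with the smallest p of its class, with exceptions marked, and for the called or smallest-p genes of each related list, of which 1 is not reported here. The other marker lists are given here for NPMc_Flt3ITD, Flt3ITD and Mx in turn. Neutrophil markers summed to 1065 and 1218, 362 and 1804, and 394 and 311 CPM. T and NK cell markers summed to 351 and 329, 257 and 192, and 84.0 and 123 CPM, lowest in Mx. Most of this sum was Nkg7, at 291 and 280, 250 and 179, and 76.3 and 90.3 CPM. Il2rb and Klrb1c were instead highest in Mx replicate 2, at 14.0 and 10.5 CPM. B and plasma cell markers summed to 48.5 and 303, 52.3 and 267, and 70.4 and 264 CPM, higher in replicate 2 of each group. In Flt3ITD against Mx, 1 neutrophil and 1 T and NK cell gene rose and 1 B and plasma cell gene fell. In NPMc_Flt3ITD against Mx, 2 T and NK cell genes rose. The part of these cells in the results was not tested. The reference annotation is of another build than mm9 and gave lengths, exon overlaps and promoters only.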

Additional observations from a re-analysis of the deposited data

Results flagged for a closer look

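Psmd1, which encodes a large scaffold subunit of the cap base, lay on opposite sides of Mx in the 2 mutant groups in every library, at 126 and 147 CPM in NPMc_Flt3ITD, 227 and 193 in Flt3ITD and 167 and 189 in Mx. The difference itself, NPMc_Flt3ITD minus Flt3ITD, was -0.62 on the log2 scale (SE 0.17, limma adjusted p = 0.113, or 0.0194 with the replicate block), lower in both NPMc_Flt3ITD libraries. Flt3ITD replicate 2 lay only just above Mx replicate 2. Of the annotated exon bases of Psmd1, 4.14% are shared with Gm21972 on the same strand.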

How the results depend on the processing

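In Flt3ITD against Mx the call of 1 member, Psmc2, became 27 members with the replicate block, 18 with edgeR and the replicate block (a setting chosen after seeing the data), 14 with DESeq2, 2 with a pseudocount of 2 CPM, 2 with a filter at 5 CPM, and 0 with no filter, with library totals, with edgeR, with only the 2 groups compared in the fit, or without any 1 library. The adjusted p of Psmc2 in limma without 1 library was between 0.0575 and 0.171. In NPMc_Flt3ITD against Flt3ITD the count of 0 members became 19 with the replicate block, 13 with edgeR and the block and 10 with DESeq2. In NPMc_Flt3ITD against Mx it was 0 in every setting run.

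Over all genes, the calls in Flt3ITD against Mx were 576, or 2341 with the replicate block, 1804 with edgeR and the block, 301 with edgeR, 1489 with DESeq2, 0 with no filter, 337 with only the 2 groups in the fit and 0 to 316 without 1 library (0 without Mx replicate 1). In NPMc_Flt3ITD against Mx they were 148, or 689 with the replicate block, 447 with edgeR and the block, 550 with DESeq2, 27 with no filter and 20 to 169 without 1 library (fewest without NPMc_Flt3ITD replicate 2). In NPMc_Flt3ITD against Flt3ITD they were 149, or 1513 with the replicate block, 1073 with edgeR and the block, 92 with edgeR, 1017 with DESeq2, 0 with no filter and 24 to 108 without 1 library (again fewest without NPMc_Flt3ITD replicate 2).

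The class medians kept their sign in Flt3ITD against Mx without 1 library (0.41 to 0.51 for the core, 0.51 to 0.71 for the immunoproteasome and 0.44 to 0.57 for the cap) and in NPMc_Flt3ITD against Flt3ITD (-0.55 to -0.16, -0.50 to -0.27 and -0.59 to -0.50). In NPMc_Flt3ITD against Mx they ran over -0.05 to 0.23, 0.20 to 0.32 and -0.051 to 0.035, so that the core and the cap crossed 0. Scaling to library totals moved the median of all genes to -0.10 in Flt3ITD against Mx and -0.11 in NPMc_Flt3ITD against Mx. With it the core, immunoproteasome and cap medians moved to 0.32, 0.59 and 0.37 in the first comparison. In the second they moved to -0.012, 0.12 and -0.17, so that the core median turned its sign there. Of all 45 members, 18 turned their sign under this scaling in NPMc_Flt3ITD against Mx, 1 in Flt3ITD against Mx and 0 in the comparison of the mutant groups. Library totals include Rn45s, at 254933 CPM in Mx replicate 1 and 142571 in Mx replicate 2, and its part here was not tested.

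Of 867 single values under the settings run, which cover only 17 chosen members in each comparison, 12 turned their sign, in 8 pairs of member and comparison, none of them called. With library totals in NPMc_Flt3ITD against Mx, Psmb7 was at -0.022, Psmc2 at -0.0011, Psmc3ip at -0.044 and Psmd9 at -0.017. Without 1 library in that comparison Psmb6 ran from -0.021 to 0.32, Psmb7 from -0.012 to 0.23, Psmc2 from 0.03 to 0.22, Psmc3ip from -0.43 to 0.59, Psmd9 from -0.016 to 0.23 and Psme2 from -0.085 to 0.44. In NPMc_Flt3ITD against Flt3ITD Psmb8 ran from -0.27 to 0.12 and Psmb11 from -0.17 to 0.58. The cause of these changes was not tested.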
